A study of Mus musculus with 2 samples.

Results

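Hair keratins and keratin-associated proteins are the structural proteins of the hair shaft and of the sheath that moulds it. They were examined in the epidermis of mice lacking the calcium-sensing receptor (CaSR, gene Casr) in keratinocytes and of littermate controls. The genes were chosen by name alone: the Krtap genes, whose symbols begin with Krtap and a number, and the keratins Krt25 to Krt28, Krt31 to Krt36, Krt39, Krt40, Krt71 to Krt75 and Krt81 to Krt86. The array carried 52 probes for 48 such genes, out of 25697 probes for 18036 genes. They comprised 5 keratins of the inner root sheath, 1 of the companion layer, 10 of the hair cortex and cuticle, and 32 Krtap genes. A gene was called detected if the authors' deposited detection p-value was 0.01 or lower for a probe in either sample, and each gene was read from its brightest such probe. By that criterion 32 of the 48 genes were detected, 31 of them in both samples.

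The knockout (KO) mice carried floxed Casr alleles and a Cre recombinase under the K14 promoter, which is active in basal keratinocytes and in the outer root sheath of the follicle. The control (CON) mice carried floxed Casr alleles, and both groups were C57BL6 mice killed at 5 days of age. The epidermis of the back skin was lifted off the dermis with dispase, and RNA of 3 mice was combined into 1 sample per genotype and measured on 1 Illumina bead array each. The labels name a CaSR knockout throughout, except for one protocol sentence that speaks of a vitamin D receptor knockout and was not followed. With 1 pooled sample per genotype there is no replicate error and no test, so every value below describes these 2 samples.

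Detected probes made up 42.0% of the KO array and 42.4% of the CON array. Signals are the authors' normalised linear intensities, in which the background was not subtracted, so that ratios of weak signals are drawn towards 1. The log2 ratios are KO over CON and had a median of 0.007 over the 8564 detected genes. For 1840 genes with several detected probes, the probes' log2 ratios scattered within a gene with an SD of 0.112, so that 2 SDs equal 1.17-fold. This scatter holds no variation between mice, pools or hybridisations. The single Casr probe had 148.2 in the KO sample and 122.9 in the CON sample, was not above background in either, and gives no check of the genotype. In whole epidermis, fewer follicle cells in the sample and less RNA per follicle cell cannot be told apart.

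A growing hair follicle is built of concentric layers, each with its own keratins. A type I keratin pairs with a type II keratin to form intermediate filaments: in the inner root sheath Krt25 to Krt28 pair with Krt71 to Krt74, and in the hair shaft Krt31 to Krt40 pair with Krt81 to Krt86. Keratin-associated proteins surround and cross-link the filaments of the hair shaft. They fall into high-sulfur and ultra-high-sulfur families, rich in cysteine, and high glycine-tyrosine families. The genes lie in clusters, and HOXC13, FOXN1 and LEF1 are known regulators of many of them.

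Promoter windows are shown for 6 genes: Krt71, which had the lowest ratio among the keratins; Krt27, an inner root sheath keratin of the other type; Krt31, a cortex keratin; the clustered Krtap19-9b and Krtap19-4, whose ratios lay close together; and Krtap9-3, the one detected gene with a higher signal in the KO sample. Each runs from 250 bases before to 50 bases after the annotated start and was taken from RefSeq (build GRCm38.p6), 5′ to 3′ on the gene's strand, which is the minus strand for all 6. Capitals mark TATAAA, a form of the TATA box sequence. The windows lie at chr15:101743048-101743347 (Krt71), chr11:99351069-99351368 (Krt27), chr11:100050502-100050801 (Krt31), chr16:88932215-88932514 (Krtap19-9b), chr16:88885040-88885339 (Krtap19-4) and chr11:99598057-99598356 (Krtap9-3).
Krt71: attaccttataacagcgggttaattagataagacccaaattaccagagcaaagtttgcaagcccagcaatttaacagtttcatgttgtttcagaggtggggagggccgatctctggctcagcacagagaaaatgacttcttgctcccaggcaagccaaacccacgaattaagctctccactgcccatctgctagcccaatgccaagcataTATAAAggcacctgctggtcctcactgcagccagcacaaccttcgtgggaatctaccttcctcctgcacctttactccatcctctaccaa
Krt27: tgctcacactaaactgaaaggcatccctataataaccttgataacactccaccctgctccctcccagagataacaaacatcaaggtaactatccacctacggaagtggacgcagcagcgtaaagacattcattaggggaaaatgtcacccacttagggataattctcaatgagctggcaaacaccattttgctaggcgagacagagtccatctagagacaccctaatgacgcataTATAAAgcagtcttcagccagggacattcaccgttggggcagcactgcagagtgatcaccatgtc
Krt31: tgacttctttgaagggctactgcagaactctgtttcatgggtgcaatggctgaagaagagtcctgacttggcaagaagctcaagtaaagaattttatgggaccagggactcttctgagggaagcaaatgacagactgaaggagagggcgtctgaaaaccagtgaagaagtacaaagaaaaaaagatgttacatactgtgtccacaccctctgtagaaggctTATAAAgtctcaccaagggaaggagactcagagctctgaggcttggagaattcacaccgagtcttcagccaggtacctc
Krtap19-9b: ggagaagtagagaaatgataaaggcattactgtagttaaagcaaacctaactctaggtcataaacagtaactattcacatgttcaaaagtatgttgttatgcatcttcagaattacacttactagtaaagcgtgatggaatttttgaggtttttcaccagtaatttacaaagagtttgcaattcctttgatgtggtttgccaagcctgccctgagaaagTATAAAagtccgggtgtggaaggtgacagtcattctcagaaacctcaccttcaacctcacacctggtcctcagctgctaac
Krtap19-4: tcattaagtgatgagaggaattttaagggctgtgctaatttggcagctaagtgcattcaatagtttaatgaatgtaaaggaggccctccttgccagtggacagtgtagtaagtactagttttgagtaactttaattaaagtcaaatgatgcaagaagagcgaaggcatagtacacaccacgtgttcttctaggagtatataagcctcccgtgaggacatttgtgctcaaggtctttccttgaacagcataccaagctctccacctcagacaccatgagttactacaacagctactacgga
Krtap9-3: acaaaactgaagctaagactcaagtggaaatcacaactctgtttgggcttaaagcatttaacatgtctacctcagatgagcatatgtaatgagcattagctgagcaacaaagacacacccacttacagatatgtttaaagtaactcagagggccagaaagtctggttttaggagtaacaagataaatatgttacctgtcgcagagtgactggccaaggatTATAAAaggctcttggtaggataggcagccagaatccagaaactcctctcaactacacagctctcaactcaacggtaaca

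Windows were matched by gene ID for 41 of the 48 genes, and for 27 of the 32 detected ones. On the gene's strand, TATAAA began and ended within 45 to 16 bases before the start in 23 of the 41 windows (56.1%), against 2.36% of the windows of all 27025 genes. It lay 40 bases before the start in Krt71, 29 in Krt31, 31 in Krtap19-9b and 30 in Krtap9-3. In Krt27 it stood nearer to the start, and in Krtap19-4 these exact letters were not present. Variants were not searched, such as tatataa, which the Krtap19-4 window holds. The core of the HOXC13 binding sequence was searched as TTTAT or TTAAT on both strands. Since the complement of TATAAA holds TTTAT, matches overlapping TATAAA were set aside, after which 35 of the 41 windows (85.4%) held a core, against 48.7% of all windows. CTTTGA or CTTTGT, the sequences bound by LEF and TCF factors, occurred on either strand in 21 windows (51.2%), against 31.3% of all. These are matches of letters and were not tested as binding sites. Neighbouring genes did not share near-identical windows: Krtap19-4 and Krtap19-9b had 47.2% identical positions in a global alignment, and Krtap5-1 and Krtap5-2 had 59.6%.

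Most detected hair keratin and Krtap genes had a lower signal in the KO sample, by small amounts. Of the 32 detected genes, 31 had a log2 ratio below 0, against 47.5% of all detected genes, and their median was -0.184. The 31 include Krt84, which was detected in the CON sample alone and whose ratio rests on the floor for dim signals. Of the 31 genes detected in both samples 30 were below 0, against 47.5% of all genes detected in both. When the values before normalisation were scaled to equal medians, 27 of the 32 were below 0, against 35.0% of all detected genes. At least 1.2-fold lower signals were found in 11 of the 32, against 2.95% of all detected genes, and at least 1.2-fold higher signals in 0 of the 32, against 2.91%. None of the 32 was 1.5-fold lower, which 0.234% of all detected genes were. After background correction and quantile normalisation of the deposited values before normalisation, 4 of the 32 were (Krtap14, Krtap5-2, Krtap19-1 and Krtap5-1), against 1.3% of all detected genes. These 4 were dim, with the authors' normalised signals from 177.0 to 239.4 in the KO sample, where the floor was 165.9. Of the 32, 6 keratins had a mean signal of at least 1000. All of these 6 were below 0 and 3 were at least 1.2-fold lower, against 47.3% and 3.89% of the 2083 detected genes of that brightness. The other 26 had a median of -0.175.

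**Figure D1:**
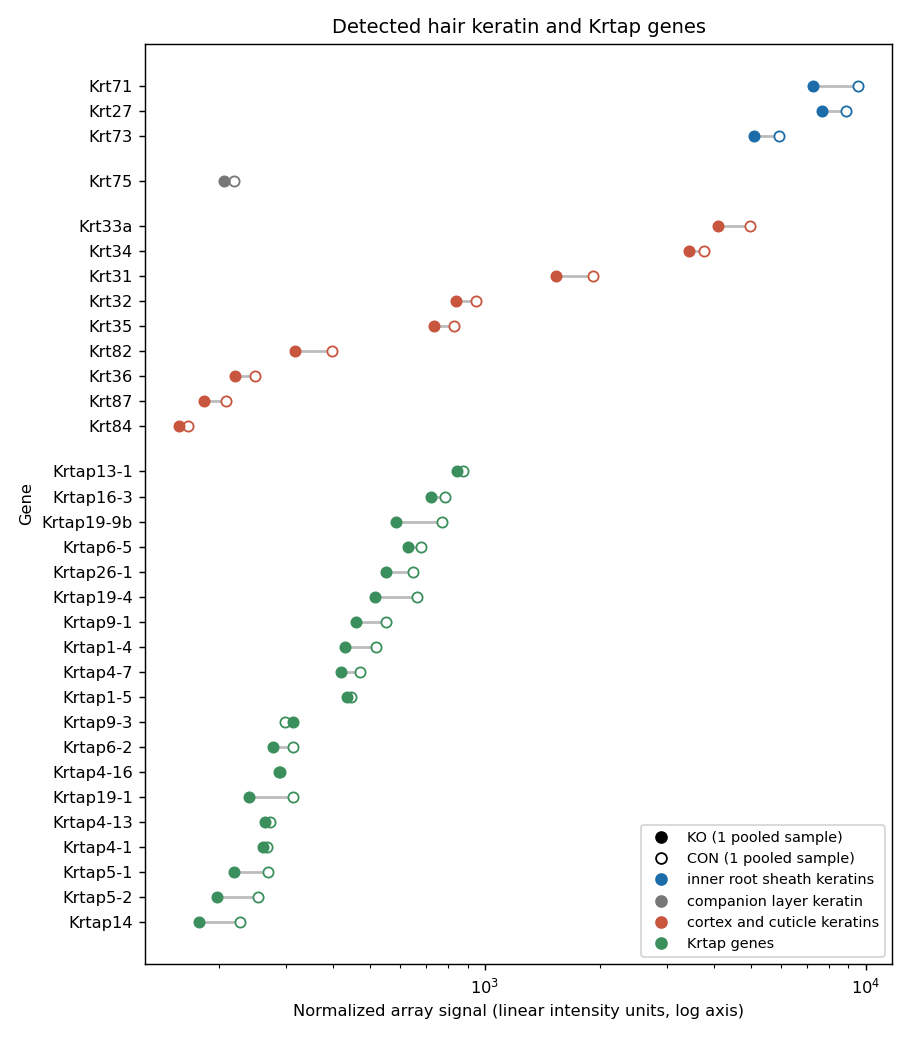
Normalised array signal (log axis) of the 32 detected genes, KO as filled and CON as open circles, 1 pooled sample each, grouped by class and ordered by mean signal. The filled circle lies to the left of the open one in every row but that of Krtap9-3 (313.6 in KO and 299.1 in CON).

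The inner root sheath keratins were detected on 3 of 5 genes, and all 3 were lower in the KO sample. Krt71, the type II keratin of all layers of the inner root sheath, had a signal of 7252.6 in the KO sample and 9571.8 in the CON sample, 1.32-fold lower (log2 ratio -0.40). Of all detected genes 0.654% had a lower ratio. Krt27, a type I partner, had 7672.0 in the KO sample and 8882.6 in the CON sample, 1.16-fold lower (log2 ratio -0.21). Krt73, a type II keratin of the sheath cuticle, had 5095.3 in the KO sample and 5914.4 in the CON sample (log2 ratio -0.22). The difference in Krt71 exceeded 2 SDs between probes, whereas those in Krt27 and Krt73 did not. Krt25 and Krt74 were not above background in either sample, at 138.4 and 154.1 in the KO sample and 127.6 and 162.0 in the CON sample.

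The companion layer keratin Krt75, expressed between the inner and outer root sheaths, gave no settled direction. Its brightest probe had 206.8 in the KO sample and 218.9 in the CON sample (log2 ratio -0.08). Another detected probe had 190.8 in the KO sample and 170.2 in the CON sample (log2 ratio 0.16), and its last probe was not above background. The mean of the detected probes was 0.041.

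Cortex and cuticle keratins were detected on 9 of 10 genes, with a median log2 ratio of -0.177. Krt33a, a type I keratin of the hair cortex, had 4097.0 in the KO sample and 4954.2 in the CON sample, 1.21-fold lower. Krt31, another cortex keratin, had 1538.7 in the KO sample and 1920.4 in the CON sample, 1.25-fold lower. Krt82, a type II keratin of the hair cuticle, had 316.7 in the KO sample and 396.0 in the CON sample, also 1.25-fold lower. It was the one keratin of the shaft with several detected probes, and all 3 were lower in the KO sample, with log2 ratios of -0.32, -0.26 and -0.18. Krt31, Krt33a and Krt82 were the shaft keratins past 1.2-fold.

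The remaining shaft keratins were nearer to equal. Krt34 had 3430.8 in the KO sample and 3752.3 in the CON sample (log2 ratio -0.13). Krt32, a type I cuticle keratin, had 837.9 in the KO sample and 946.0 in the CON sample (log2 ratio -0.18), and Krt35, a keratin of the early shaft, had 735.6 in the KO sample and 831.4 in the CON sample (log2 ratio -0.18). Krt36 and Krt87 (listed in the file as Krt83) had log2 ratios of -0.18 and -0.19 at signals near background. Krt84 was detected in the CON sample (166.4) and not above background in the KO sample (157.6), so its ratio is a bound of at least 1.003-fold lower. Krt40 was not above background in either. Type I keratins (7 genes on chromosome 11) had a median of -0.177. Type II keratins (6 genes on chromosome 15, Krt75 and Krt84 included) had a median of -0.204. Both sets mix keratins of the sheaths and the shaft, so the medians do not compare pairing partners.

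Outside the naming rule, 2 probes are listed as Krt2-10, which RefSeq gives as an older symbol of Krt86, a type II cortex keratin. They had 1695.8 and 1618.4 in the KO sample and 2121.7 and 1889.9 in the CON sample, with log2 ratios of -0.32 and -0.22. With Krt86 added, 32 of 33 detected genes were below 0, against 47.5% of all detected genes. At least 1.2-fold lower were 12 of the 33, against 2.95%. Adding Krt86 was a choice made after its low ratios were seen, so the raised counts are no further evidence. A further probe outside the rule is listed as Krt2-18. It had 790.8 in the KO sample and 822.2 in the CON sample (log2 ratio -0.056). Its gene ID matched no gene in the RefSeq annotation used, and it was not added. The counts with Krt86 thus leave out this probe, which was nearer to equal than those of Krt2-10.

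**Figure D2:**
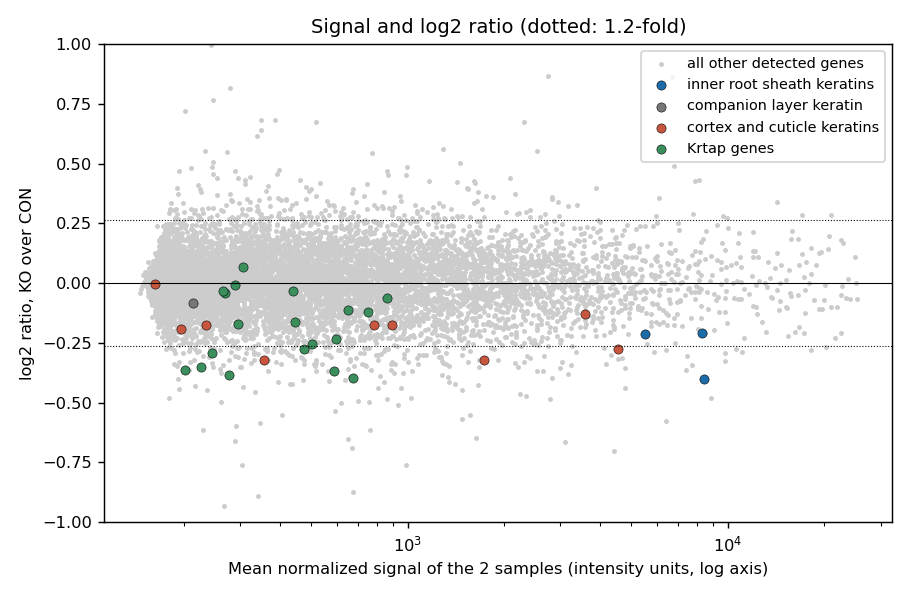
Log2 ratio (KO over CON) against the mean normalised signal of both samples (log axis) for the detected genes, with hair keratins and Krtap genes coloured by class, dotted lines at 1.2-fold, and 9 genes beyond the plotted range. The coloured points lie below 0 across the signal range, except Krtap9-3 at 0.07.

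Krtap genes were detected for 19 of 32 genes, with a median log2 ratio of -0.173. Of the 19, 18 were below 0, against 47.5% of all detected genes, some of them by very little. At least 1.2-fold lower were 7 of the 19, against 2.95% of all detected genes. The detected genes of the high glycine-tyrosine families had a median of -0.369 over 5 genes, those of the high-sulfur families -0.235 over 5 genes and those of the ultra-high-sulfur families -0.103 over 8 genes. Krtap16-3, for which the array's accession matched no current gene, was not placed. It had 722.3 in the KO sample and 786.1 in the CON sample (log2 ratio -0.12). The other genes listed in the file as Krtap16 belong to the high glycine-tyrosine families. Counting Krtap16-3 there would bring their median closer to those of the other families. With 1 sample per genotype the difference between the families was not tested.

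The Krtap19 genes, of the high glycine-tyrosine type, had the lowest ratios. Krtap19-9b had 584.7 in the KO sample and 770.0 in the CON sample, 1.32-fold lower. Krtap19-4 had 514.9 in the KO sample and 664.9 in the CON sample, 1.29-fold lower, and Krtap19-1 had 239.4 in the KO sample and 312.9 in the CON sample, 1.31-fold lower. Their log2 ratios spanned -0.40 to -0.37, close to that of Krt71. Krtap19-3 and Krtap19-5 were not above background in either sample. The Krtap6 genes, of the same type, differed less, with 277.0 in the KO sample and 312.3 in the CON sample for Krtap6-2 (log2 ratio -0.17) and 627.7 in the KO sample and 679.4 in the CON sample for Krtap6-5 (log2 ratio -0.11). Krtap genes belong to families of similar copies, so a probe may also bind transcripts of relatives.

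Among the high-sulfur genes, Krtap14 had 177.0 in the KO sample and 227.6 in the CON sample, 1.29-fold lower at signals near background. Krtap1-4 had 428.3 in the KO sample and 518.8 in the CON sample, 1.21-fold lower. Krtap26-1 had 549.5 in the KO sample and 646.9 in the CON sample (log2 ratio -0.24). Krtap13-1 and Krtap1-5 were close to equal: Krtap13-1 had 841.9 in the KO sample and 878.2 in the CON sample, and Krtap1-5 had 433.9 in the KO sample and 444.2 in the CON sample. Krtap1-4 and Krtap1-5 are neighbours of one subfamily, yet the log2 ratios were -0.28 and -0.03.

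The 8 detected ultra-high-sulfur genes had log2 ratios from -0.35 for Krtap5-2 to 0.07 for Krtap9-3. Both detected Krtap5 genes were at least 1.2-fold lower. Krtap5-2 had 198.4 in the KO sample and 252.8 in the CON sample, 1.27-fold lower. Krtap5-1 had 219.6 in the KO sample and 268.6 in the CON sample, 1.22-fold lower. The signals of both were near background. The 4 detected Krtap4 genes had a median of -0.038, from -0.16 for Krtap4-7 (419.9 in the KO sample and 470.4 in the CON sample) to -0.01 for Krtap4-16 (287.8 in the KO sample and 289.1 in the CON sample). Krtap9-1 had 459.6 in the KO sample and 549.3 in the CON sample (log2 ratio -0.26), whereas Krtap9-3 had 313.6 in the KO sample and 299.1 in the CON sample (log2 ratio 0.07). With median scaling, Krtap1-5, Krtap4-1, Krtap4-16 and Krt84 moved above 0 as well, each by 0.04 or less.

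Placed by chromosome, the Krtap clusters had different medians, a difference that was not tested. The 8 detected genes on chromosome 16 had a median log2 ratio of -0.299 and all were below 0. The 2 on chromosome 7, both Krtap5, had a median of -0.32. The 7 on chromosome 11 had a median of -0.034, with 6 below 0, although the type I keratins beside them had a median of -0.177. Krtap9-1 and Krtap16-3 could not be placed by accession.

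**Figure D3:**
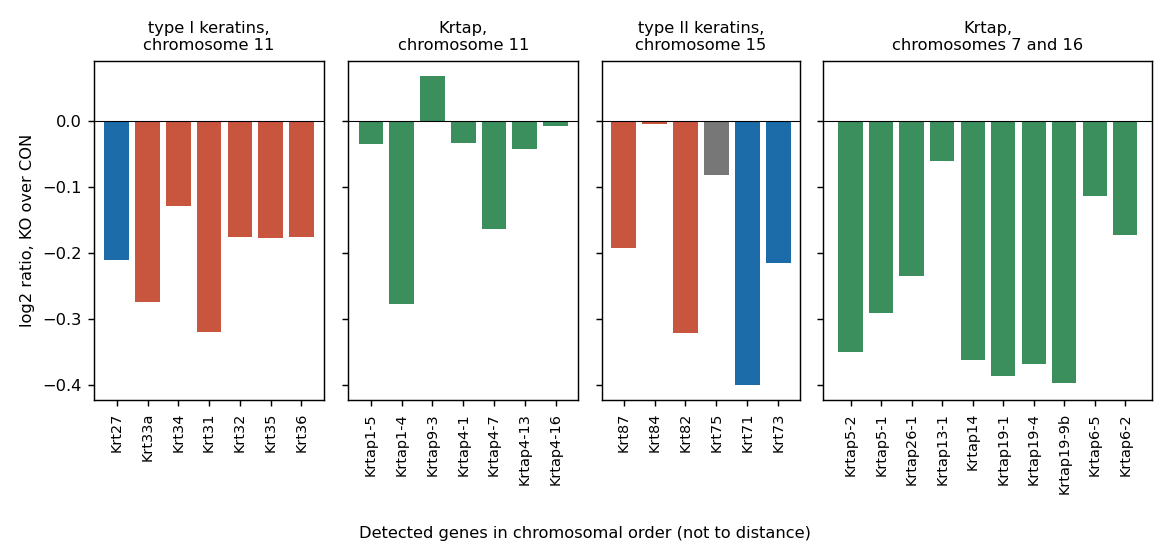
Log2 ratio (KO over CON, 1 pooled sample each) of the detected genes with a known position, in chromosomal order within each cluster. Bars of the Krtap genes on chromosome 11 are short (median -0.034) beside those on chromosome 16 (median -0.299).

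The other 13 of the 32 Krtap genes were not above background in either sample. They were Krtap3-2, Krtap4-2, Krtap5-4, Krtap5-5, Krtap6-1, Krtap12-1, Krtap13, Krtap15, Krtap19-3, Krtap19-5, Krtap21-1, Krtap31-1 and Krtap31-2. The nearest to detection was Krtap15, with 164.5 in the KO sample (detection p-value 0.0113) and 161.0 in the CON sample (detection p-value 0.0175). No ratio is given for these genes.

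Other proteins of the hair shaft and root sheaths also had mostly lower signals in the KO sample. Of 13 detected genes among 16 on the array, 11 were below 0, against 47.5% of all detected genes. At least 1.2-fold lower were 5 of the 13, against 2.95% of all, and the median log2 ratio was -0.175. The list was chosen with earlier results of these data known. The 11 include S100a3, Tgm3 and Ctsl, which were close to equal at -0.04, -0.02 and -0.011. Lipk was -0.175 on its brightest probe but 0.05 on its other. Liph, a phospholipase of the inner root sheath, had 547.3 in the KO sample and 725.9 in the CON sample, 1.33-fold lower, with log2 ratios of -0.41 and -0.34 on its probes. Tchhl1, a trichohyalin-like gene, had 319.2 in the KO sample and 411.4 in the CON sample, and Lrrc15, a leucine-rich repeat protein, had 948.4 in the KO sample and 1200.7 in the CON sample. The exceptions, named after their values were seen, were Lpar6, a lysophosphatidic acid receptor of the follicle, at 0.001 and the hair desmosomal cadherin gene Dsg4, with 185.0 in the KO sample and 156.6, not above background, in the CON sample, a bound of at least 1.12-fold higher.

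Regulators of the hair keratin programme were split between both directions. Of 22 detected genes among 25 on the array, 12 were below 0 and 10 above, with a median of -0.024. Shh, a ligand made by the hair matrix, had 255.7 in the KO sample and 196.1 in the CON sample, 1.30-fold higher. Hoxc13, the homeobox activator of hair keratins, had 314.7 in the KO sample and 247.2 in the CON sample. That was 1.27-fold higher, in the opposite direction to most of the keratin genes. Shh and Hoxc13 were each read from 1 detected probe at weak signals. Smad1, a mediator of BMP signalling, had 929.1 in the KO sample and 748.1 in the CON sample on its brightest probe (log2 ratio 0.31), but its other probe gave -0.11. Bmp4, a BMP ligand named after its value was seen, was the one regulator at least 1.2-fold lower, with 415.3 in the KO sample and 514.4 in the CON sample. Foxn1 and Lef1 were not above background in either sample.

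A list of keratins chosen for the epidermis between the follicles had a like median. Some of them, such as Krt15 and Krt79, are also made in the follicle. The median was -0.185 over 11 detected genes, beside -0.184 in the hair keratins and Krtap genes. Of the 11, 7 were below 0 and 4 above. The largest differences were in Krt23 (6491.0 in KO and 8344.7 in CON), in Krt5, the basal layer keratin (16377.4 in KO and 19907.2 in CON), and in Krt80 (257.3 in KO and 308.6 in CON). The 4 above 0, named after their values were seen, were Krt10 at 0.22, Krt79 at 0.12, Krt1 at 0.11 and Krt2 at 0.02. The outer root sheath and stress keratins went both ways, with Krt16 at 0.28, Krt6a at 0.13 and Krt6b at -0.19 on its brightest probe but 0.12 on its other. Krt17 of the outer root sheath had 14798.1 in the KO sample and 15911.6 in the CON sample (log2 ratio -0.10).

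**Figure D4:**
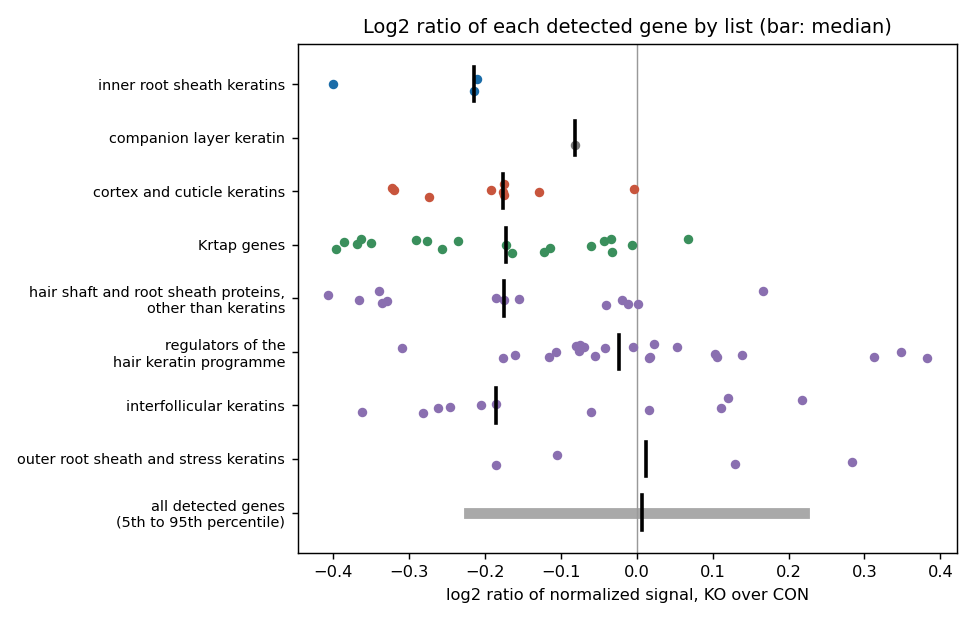
Log2 ratio (KO over CON, 1 pooled sample each) of each detected gene by list, with black bars at the medians and a grey bar from the 5th to the 95th percentile of all detected genes. Hair keratin classes and other hair proteins lie mostly below 0 (medians -0.215 to -0.173, and -0.082 for the single companion layer gene), while the regulators spread around 0.

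Markers of other cells of the follicle and skin were measured in the same samples. Hair matrix and proliferation markers were detected for 5 of 6 genes on the array, 4 of them above 0. Their summed signals were 2910.2 in the KO sample and 2544.1 in the CON sample. Most of that signal came from Top2a, Cdk1 and Ccnb1, which mark dividing cells of any kind, at log2 ratios of 0.199, 0.182 and 0.215. The hair matrix genes Shh and Msx2 had 0.383 and -0.055, and Lef1 was not above background. Melanocyte markers (5 of 6 detected) summed to 4293.1 in the KO sample and 4292.9 in the CON sample. Dermal fibroblast markers (3 of 7 detected, without Col1a2 and Col3a1) summed to 1751.6 in the KO sample and 1736.8 in the CON sample, and 0 of 9 dermal papilla markers were above background. Skeletal muscle markers (3 of 5 detected) summed to 712.6 in the KO sample and 705.8 in the CON sample, and sebocyte markers (6 of 7 detected) to 17575.1 in the KO sample and 17473.5 in the CON sample. The sebocyte markers went both ways, from -0.50 for the wax synthase gene Awat2 to 0.43 for the melanocortin receptor gene Mc5r, with 3 below and 3 above 0. The keratinocyte markers Krt1, Krt5, Krt10 and Krt14 summed to 57685.2 in the KO sample and 60450.3 in the CON sample. These too went both ways. The log2 ratios were -0.282 for Krt5 and -0.205 for Krt14, but 0.111 for Krt1 and 0.218 for Krt10. The part of cell composition in the lower hair keratin signals was not tested.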

How the data were processed

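RNA of 3 mice was combined per genotype, per the labels' protocols, and hybridised to 1 Illumina bead array each. For each probe and sample the authors deposited an intensity on a linear scale, before and after normalization, and a detection p-value, per the file headers. The submitters' processing notes name GenomeStudio 2011.1. How the values were normalized is not given in these sources. The deposited series values equalled the normalized intensities (largest difference 0).

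Before log2 transformation, normalized signals below the dimmest detected probe of an array (165.9 in KO and 164.9 in CON, detection threshold 0.01) were set to that value. Probe names were updated by gene ID or accession against RefSeq (GRCm38.p6), which matched 24358 probes. Of the 48 genes, 2 were kept by the symbol in the file. Gene lists, Krtap families and the threshold of 1.2-fold were chosen with earlier results of these data known. Within each class, signals were printed for the genes with the highest mean signals and the largest ratios, and other detected genes were named freely. No significance test was made. Python 3.11.15, R 4.3.3 and limma 3.58.1 were used. The step from normalized signals to gene ratios was tested on simulated data. Fold changes were planted in normalized signals of brighter genes only, so normalization and weak signals were not tested.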

Additional observations from a re-analysis of the deposited data

How the results depend on the processing

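The results were recomputed under 8 alternatives: median scaling or loess centring of the values before normalization, normexp background correction with quantile normalization, no floor, a detection threshold of 0.05, detection in both samples, no detection filter and no floor together, and the mean over probes. The medians of the whole set, the inner root sheath keratins, the cortex and cuticle keratins and the Krtap genes stayed below 0 under all 8, while the single companion layer gene Krt75 turned to 0.041 with the mean over probes. The median of the Krtap genes moved most, to -0.304 with normexp correction and quantile normalization, where Krtap14 reached -0.929 and Krtap5-2 -0.784 at signals near background. That setting gave 16 of 32 genes at least 1.2-fold lower, against 10.2% of all genes, and 4 of 32 at least 1.5-fold lower, against 1.3%. It moved the log2 ratio of 9 genes by more than the SD between probes, and none of these had a mean signal above 356.4. Background correction and normalization changed together there, and the cause was not tested. Median scaling gave 9, against 2.03%, and shifted the median of all genes to 0.0483. The detected genes below 0 numbered 27 to 31 of 32 where all 32 were included. Without a detection filter and floor 38 of 48 were below 0, against 49.0% of all genes. No paired analysis was possible because each group has 1 sample, and for the same reason no replicate could be left out.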
